A study of Mus musculus with 9 samples.

Results

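The comparison described here is that of the DEX + TE group with the control group, and it asks what still differed from saline-treated muscle when DEX was given with a turmeric-supplemented diet. It covers 6 of the 9 deposited arrays, 3 from DEX + TE mice and 3 from control mice, chosen by the treatment written in the sample labels. All were of tibialis anterior muscle from 15-week-old male C57BL/6J mice, with 1 array per mouse. Control mice were fed an AIN93-based diet and injected with saline. DEX + TE mice were fed that diet with 2% TE, a water extract of turmeric rhizome, and were injected intraperitoneally with 5 mg/kg DEX (dexamethasone, a synthetic glucocorticoid) every day for 7 d. The methods place the start of TE feeding 5 d ahead of the first DEX dose. The sample labels, in contrast, speak of turmeric after DEX. Mice on the TE diet without DEX were not analysed here, so the effects of DEX and of TE cannot be told apart in this comparison, and the 3 arrays of the DEX group (DEX without TE) are given beside it as values. The methods state that the mice put on arrays had body and muscle weights near the average, which narrows what the 3 mice of a group represent.

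Glucocorticoids act through the glucocorticoid receptor, a transcription factor that enters the nucleus when it binds hormone and raises or lowers the transcription of its target genes. In skeletal muscle they are known for protein breakdown through ubiquitin ligases such as Fbxo32 (atrogin-1) and Trim63 (MuRF1), for restraint of the growth kinase mTORC1, and for insulin resistance. They also damp inflammation and collagen synthesis in connective tissue, and in the liver they raise acute-phase proteins together with cytokines.

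The arrays hold 45037 probe sets, each a group of oligonucleotides against a transcript, after the manufacturer's controls were left out. A probe set was tested where the mean log2 signal of at least 1 of the groups compared reached that of a signal of 50, which kept 28616 probe sets, standing for 13486 genes with a symbol. The probe set nearest to this limit on the inside had a higher group mean of 50.003, and the nearest on the outside had 50 after rounding. The median signal was 76.0 to 86.2 on control arrays and 84.7 to 95 on DEX + TE arrays. Signals of at least 50 made up 59.5% to 62.9% of a control array and 62.6% to 65.2% of a DEX + TE array. The log2 ratio of 3′ to 5′ signal of beta-actin, a sign of RNA integrity, was 0.29 ± 0.04 (SD, n = 3) in control mice and 0.46 ± 0.08 in DEX + TE mice, without overlap, whereas that of Gapdh was −0.34 ± 0.03 and −0.33 ± 0.03. The part of these 2 shifts in the results was not tested. The 14 fast fiber contractile genes, which mark this muscle, were all measured, with a summed signal of 676300 to 961200 on the 6 arrays.

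A probe set was called when its Benjamini-Hochberg adjusted p in limma was under 0.05 and its log2 fold change (DEX + TE minus control) was at least 0.6 in size. Of the tested probe sets, 69 were called higher (0.241%) and 50 lower (0.175%), and in all 119 the groups did not overlap. Without the test, the groups failed to overlap in 12.6% of probe sets with DEX + TE higher and in 10.5% with DEX + TE lower. The calls cover 54 gene symbols that rose and 35 that fell. Of the called probe sets, 18 of the higher were below 50 on every control array and 12 of the lower were below 50 on every DEX + TE array. Such probe sets passed the filter through the brighter group alone, and their fold change is given as a lower bound against a signal of 50. The split between directions moved with the scaling. Higher calls made up 58.0% of all calls on the deposited scale, 43.2% with each array centred on its median and 50% with quantile normalization. Centring moved the median change of all probe sets by −0.16 on the log2 scale, from 0.05 to −0.11. Leaving out 1 array gave 32 to 118 calls. The number fell to 53, 67 and 64 without control mouse 1, 2 and 3, to 36, 39 and 32 without DEX + TE mouse 1, 2 and 3, and to 76 and 78 without DEX mouse 2 and 3, which enter only the estimate of the spread. The smallest two-sided p that an exact permutation test of 3 against 3 arrays can give is 0.1, so single genes were judged by the limma fit.

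**Figure D1:**
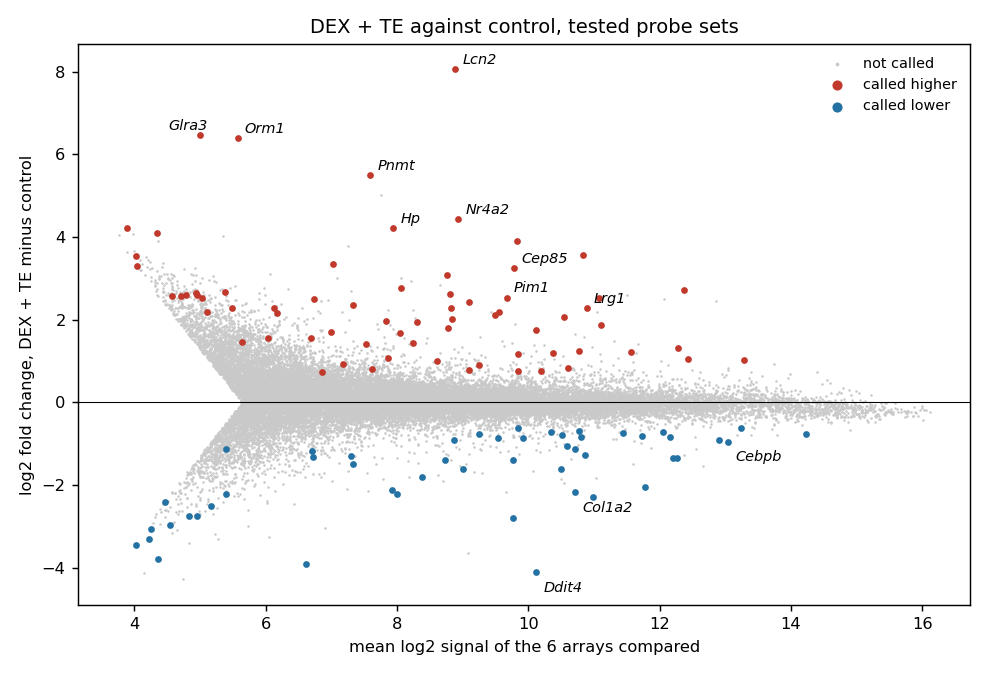
Log2 fold change of DEX + TE against control (y axis) and mean log2 signal of the 6 arrays compared (x axis) for the 28616 tested probe sets. Grey points were not called, red points are the 69 called higher and blue points the 50 called lower; the brightest probe sets, at the right, lie slightly below 0.

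Lcn2, which had the largest rise of the comparison, belongs to the acute-phase proteins, which the liver releases into blood during inflammation. Of 14 measured genes of this list 3 were called higher, Lcn2, Orm1 and Hp, against 0.311% of all genes called higher. Of the 14, 7 reached the signal limit only through the DEX + TE group, among them Lcn2 and Orm1, and 1 only through the control group, so no median over the list is given. Among the 6 that reached it in both groups, Hp was called. Hpx, Steap4, Cp, Lbp and Cd14 had log2 fold changes of 0.49, 0.21, 0.05, 0.05 and −0.02, without a call. Lcn2, lipocalin 2, which sequesters iron-carrying bacterial siderophores, had signals of 11.9, 35.1 and 58.6 in control mice and 8534, 7300 and 7325 in DEX + TE mice. Every DEX + TE array was thus far above every control array, and 2 of the control arrays lay below 50. Lcn2 rose by 8.05 ± 0.53 (log2 fold change ± SE, adjusted p = 0.00267), and its signals in the DEX group were 15040, 9011 and 10810. Orm1, an acid glycoprotein that binds drugs and steroids in plasma, was at 2.86, 22.6 and 2.19 in control mice and at 439, 335 and 562 in DEX + TE mice. Since Orm1 was below 50 on every control array, it was at least 8.71-fold higher (adjusted p = 0.035). Hp, haptoglobin, which binds free hemoglobin, had signals of 19.99, 109 and 85.5 against 884, 1210 and 1095, a rise of 4.21 ± 0.60 (adjusted p = 0.0413). Hp was at 714, 486 and 399 in DEX mice. Each of these last calls held only when 1 particular array was left out, control mouse 2 for Orm1 and control mouse 1 for Hp, and was lost without any other (adjusted p up to 0.128 and 0.136). Orm3, the next member by p, had a log2 fold change of 3.24 with an adjusted p of 0.0515, and Rank Product called it higher together with the 3 above.

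Other genes of proteins known from plasma were called outside that list. Lrg1, a leucine-rich glycoprotein of serum, rose from 923, 752 and 911 in control mice to 4140, 4054 and 4345 in DEX + TE mice, by 2.28 ± 0.12 (adjusted p = 0.000961). Its DEX signals of 5518, 4694 and 4533 were all above the DEX + TE signals, with no call between these groups (adjusted p = 0.703). Apoh, apolipoprotein H, was at 44.7, 36.9 and 53.9 against 271, 170 and 358, a rise of 2.51 ± 0.29 (adjusted p = 0.0217) from a control level below 50 on 2 of 3 arrays, while a second probe set of Apoh differed by 0.07. Apod, a lipid carrier, rose by 1.22 ± 0.13 (adjusted p = 0.0139), with 1921, 1917 and 2122 against 4421, 5225 and 4314, and lost the call without control mouse 1 or 2 or any 1 of the DEX + TE mice (adjusted p up to 0.0631).

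The Lcn2 promoter is printed because Lcn2 had the largest rise. It lies on chromosome 2 of GRCm38.p6, minus strand, at chr2:32387740-32387989, the 250 bases before the RefSeq start site, read 5′ to 3′ on the strand of the gene.
Lcn2: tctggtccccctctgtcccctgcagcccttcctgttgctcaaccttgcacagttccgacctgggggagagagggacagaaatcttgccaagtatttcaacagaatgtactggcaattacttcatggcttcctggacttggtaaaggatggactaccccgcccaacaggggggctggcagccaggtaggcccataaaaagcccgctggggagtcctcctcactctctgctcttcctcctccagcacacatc
AGAACA, the hexamer that the glucocorticoid receptor binds as a pair of inverted copies 3 bases apart, was searched on both strands from 250 bases before to 50 bases after the start site. It was in none of the promoters of Lcn2, Nr4a2, Cep85 and Myo5a among the genes with the largest rises, and no letters are in capitals above for that reason. Of all 32851 promoters 19.0% held it, of 54 promoters of 42 called higher genes 9.26%, and of 42 promoters of 30 called lower genes 21.4%. The paired form was in 3 promoters in all and in 0 of those of called genes. A match is not a binding site, and the absence of these letters from this window says nothing about binding elsewhere.

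**Figure D2:**
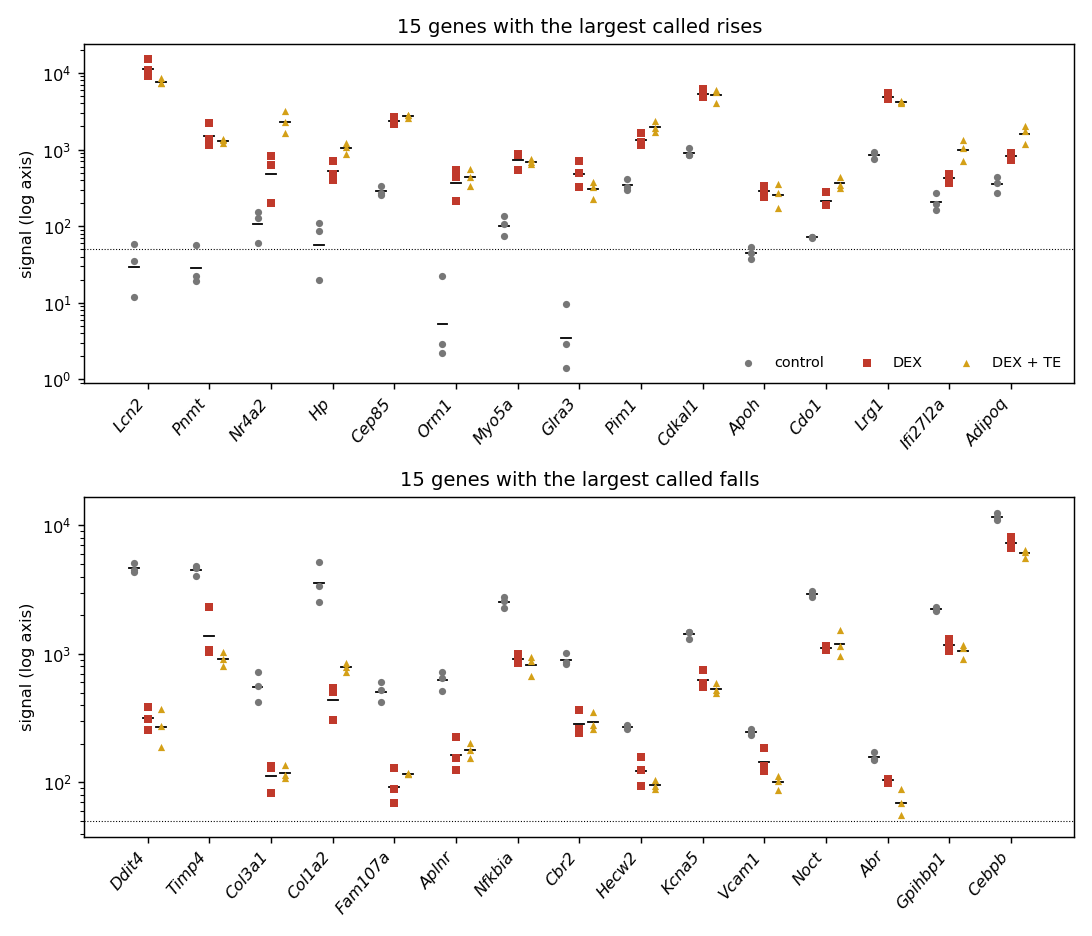
Signal on each array (y axis, log scale) of the 15 genes with the largest called rises (top) and the 15 with the largest called falls (bottom), with 3 mice per group, a bar at the geometric mean, and the limit of 50 as a dotted line. The DEX + TE and control signals do not overlap for any of the 30 genes, and Orm1 and Glra3 lie lowest in control mice.

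Several enzymes and signalling genes rose by more than 4-fold. Pnmt, which makes adrenaline from noradrenaline, had signals of 19.1, 56.3 and 22.2 in control mice and 1327, 1217 and 1353 in DEX + TE mice, a rise of 5.50 ± 0.42 (adjusted p = 0.00529) from a control level below 50 on 2 of 3 arrays. A second probe set of Pnmt, at 232, 209 and 267 against 866, 649 and 991, rose by 1.81 ± 0.17. Pnmt was the only called gene among 7 measured genes of catecholamine synthesis, breakdown and reception, against 0.311% of all genes called higher. Of the 7, 2 reached the signal limit only through the DEX + TE group, Th among them, and 1 only through the control group. Th, the first enzyme of that pathway, had 16.7, 4.46 and 38.1 against 75.6, 81.4 and 42.3 without a call (adjusted p = 0.253). Pim1, a serine/threonine kinase of cell survival, was at 407, 299 and 321 against 1899, 1694 and 2359, a rise of 2.53 ± 0.20 (adjusted p = 0.00529), with 2.43 on its other probe set. Cdkal1, which modifies a transfer RNA for lysine, rose from 1034, 839 and 841 to 5683, 4063 and 5940, by 2.52 ± 0.18 (adjusted p = 0.00481). Its second probe set differed by 0.79 and was not called. Cdo1, cysteine dioxygenase, the first step of cysteine breakdown to taurine, was at 69.4, 71.3 and 72.7 against 313, 442 and 340, a rise of 2.34 ± 0.20 (adjusted p = 0.00632). In DEX mice Cdo1 had 282, 190 and 186, all below the DEX + TE signals (unadjusted p = 0.00603, adjusted p = 0.457).

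Among the other named rises were genes with no common list. Cep85, a centrosomal protein, was at 256, 271 and 337 against 2786, 2553 and 2795, a rise of 3.24 ± 0.13 (adjusted p = 0.000157). A second Cep85 probe set differed by 0.08, so the rise was seen on 1 probe set of 2. Myo5a, a motor of vesicle transport, rose from 136, 105 and 73.9 to 761, 688 and 644, by 2.77 ± 0.27 (adjusted p = 0.0118), with 0.7828 and 3.0048 on its other probe sets, which limma did not call, though Rank Product called the second. Glra3, a subunit of the glycine receptor, was at or under 9.72 on every control array and at 223, 378 and 324 in DEX + TE mice, at least 6.02-fold higher (adjusted p = 0.0139). Its DEX signals were 704, 324 and 489. Ifi27l2a, an interferon-inducible gene, was at 161, 274 and 196 against 709, 1314 and 1041, a rise of 2.27 ± 0.28 (adjusted p = 0.0281). DEX mice lay between, at 476, 460 and 366. The calls of Myo5a, Glra3, Apoh and Ifi27l2a were lost without DEX + TE mouse 3 and without at least 1 other array, with an adjusted p of at most 0.0992. Those of Lcn2, Pnmt, Cep85, Pim1, Cdkal1, Lrg1 and Cdo1, on the probe set with the larger fold, held without any 1 of the 9 arrays. The second Pnmt probe set lost its call without DEX + TE mouse 1 (adjusted p = 0.058).

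Genes of the glucocorticoid response moved in both directions. Of the receptor and its known direct targets, 32 were measured, 1 was called higher and 3 lower, against 0.311% and 0.200% of all genes. The median of the list was −0.13, and 11 members had an unadjusted p under 0.05 with a lower value and 3 with a higher, against 6.93% and 7.85% of all genes. Fkbp5, a chaperone that lowers the receptor's affinity for hormone, rose from 1303, 950 and 1235 to 4479, 3897 and 4326, by 1.88 ± 0.23 (adjusted p = 0.0294). Its signals in DEX mice were 7827, 5090 and 4255. A second Fkbp5 probe set was called too, with a rise of 1.76 ± 0.19 (adjusted p = 0.0159). Ddit4 (REDD1), an inhibitor of mTORC1 that glucocorticoids are known to induce in muscle, had the largest fall. Its signals were 5136, 4308 and 4470 in control mice and 372, 277 and 190 in DEX + TE mice, 17.2-fold lower (log2 fold change −4.10 ± 0.26, adjusted p = 0.0024). The DEX group was at 390, 258 and 312, so both groups injected with DEX lay far below every control array. Nfkbia, the inhibitor that holds NF-kB in the cytoplasm, fell on 4 of its 5 probe sets, with log2 fold changes of −1.62 to −1.12, and was at 2567, 2280 and 2791 against 669, 876 and 952 on the one with the largest change (adjusted p = 0.0119). Cebpb, a transcription factor of inflammation and fat cell differentiation, was at 10970, 12540 and 11660 against 5616, 6440 and 6172, a change of −0.95 ± 0.11 (adjusted p = 0.0259). A second Cebpb probe set, also called, had −0.84 ± 0.11 (adjusted p = 0.0353). Ddit4 and Nfkbia fell although the list gathers genes known for induction by glucocorticoids. Nr3c1, the receptor itself, had 3094, 3619 and 3536 against 2956, 3240 and 3141 (log2 fold change −0.13, adjusted p = 0.57). Per1, Tsc22d3 and Sgk1, also known targets, had log2 fold changes of −0.81, −0.79 and −0.51 without a call, and Cdkn1a and Mt1 of 1.19 and 1.07. On its brighter probe set Fkbp5 lost its call without any 1 of the control or DEX + TE arrays or DEX mouse 2 (adjusted p up to 0.12). Cebpb, on its brighter probe set, lost it without any 1 of the same 6 or DEX mouse 3 (up to 0.108). The second probe sets of Fkbp5 and Cebpb were not checked in this way. Nfkbia lost it without DEX + TE mouse 2 on the probe set above (0.0507), and on its brightest without any 1 of the control or DEX + TE arrays or DEX mouse 2 (up to 0.103), and Ddit4 kept it without any 1 of the 9 arrays.

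In the RT-PCR panel of 6 genes, only Ddit4 was called. Fbxo32, the ubiquitin ligase atrogin-1, had signals of 18000, 12060 and 10690 in control mice and 14790, 14000 and 16880 in DEX + TE mice, so the groups overlapped (log2 fold change 0.20 ± 0.20, adjusted p = 0.672). In the DEX group Fbxo32 was at 19780, 20850 and 22670, above every DEX + TE array. Trim63, MuRF1, was at 14360, 15440 and 14220 against 11740, 10570 and 13730 (−0.30 ± 0.12, adjusted p = 0.325), and at 20650, 19050 and 19080 in DEX mice. Each DEX + TE signal of Trim63 lay under each control signal, and the difference did not pass the test. Klf15, a metabolic transcription factor, differed by −0.80 ± 0.27 (adjusted p = 0.266), Foxo3 by 0.62 ± 0.32 and Foxo1 by −0.34 ± 0.22. The other probe sets of Foxo3 had −0.57 to −0.33, opposite in sign, and those of Foxo1 −0.57 to 2.26. Those of Fbxo32 had −0.06 to −0.03. Among 15 measured ubiquitin ligases and other atrophy genes, 0 were called by limma or Rank Product, and the median was 0.01. An unadjusted p under 0.05 was reached by 0 with a higher value and 1 with a lower, against 7.85% and 6.93% of all genes.

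Collagen genes, which build the matrix around muscle fibers, were mostly lower by value than in control mice. Of 17 measured collagen genes, Col3a1 was called lower and 14 were lower by value, against 0.200% and 46.7% of all genes. Of the 17, 7 were lower at an unadjusted p under 0.05, against 6.93% of all genes. In 9 of the 17 the groups did not overlap with DEX + TE lower, against 12.4% of all genes. The list's median was −0.40 on the deposited scale, −0.55 with centred arrays and −0.50 with quantile normalization. On single arrays the median stood at −0.33, 0.13 and 0.10 in control mice, at −0.46, −0.46 and −0.32 in DEX + TE mice and at −1.24, −0.67 and −0.63 in DEX mice, so that control mouse 1 overlapped the DEX + TE mice. Col3a1, a chain of the fibrils around muscle fibers, was at 5262, 9178 and 7363 in control mice and 1876, 1754 and 1558 in DEX + TE mice on its brighter probe set, a change of −2.04 ± 0.26 (adjusted p = 0.0314), and fell by 2.22 on the other. Its DEX signals were 761, 1321 and 1117, below each DEX + TE signal. Col1a2, of type I collagen, was called on 1 of its 2 probe sets, at 2522, 5230 and 3397 against 794, 846 and 725 (−2.17 ± 0.31, adjusted p = 0.0406). The brighter Col1a2 probe set had −1.55 ± 0.24 (adjusted p = 0.0525). Col1a1 differed by −1.18 ± 0.25 without a call (adjusted p = 0.12), with 994, 1629 and 1195 against 582, 533 and 541. The Col3a1 calls were lost without any 1 of the DEX + TE arrays or control mouse 2 or 3 (adjusted p up to 0.115), and on the brighter probe set also without DEX mouse 3. The Col1a2 call held only without DEX mouse 1 (up to 0.137). In bulk muscle, fewer cells of a type and less RNA per cell cannot be told apart. The 14 fibroblast markers had a median of 0.00, 7 of them higher and 7 lower by value, and a summed signal of 41340 to 58720 in control mice and 54080 to 60950 in DEX + TE mice. Their part in the collagen values was not tested.

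Timp4 and Timp3, inhibitors of matrix proteases, were called lower, whereas Timp1 and Timp2 had log2 fold changes of 0.09 and 0.05. Timp4 had 4820, 4024 and 4632 in control mice and 1037, 810 and 915 in DEX + TE mice, a change of −2.29 ± 0.30 (adjusted p = 0.035). Timp3 fell by 0.85 ± 0.12 on its brightest probe set (adjusted p = 0.0362) and by 0.79 ± 0.09 on a second called one (adjusted p = 0.0208). Among the 36 measured genes of the list of matrix genes outside the collagens, Timp3 was the only one called lower. Thbs1, a thrombospondin that activates TGF-beta, was the only one called higher. Over all genes, 0.200% were called lower and 0.311% higher. Thbs1 rose from 107, 130 and 109 to 366, 521 and 480, by 1.97 ± 0.20 (adjusted p = 0.0139). Timp4 lost its call without any 1 of the control or DEX + TE arrays or DEX mouse 3 (adjusted p up to 0.12). Timp3 lost it on its brightest probe set without any 1 of the 9 arrays (adjusted p up to 0.124), and its second was not checked in this way. Thbs1 lost it without control mouse 1 or 3 or DEX + TE mouse 2 or 3 (up to 0.0712).

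Other named falls included several genes of vessels and membranes. Aplnr, the apelin receptor of endothelial cells, was at 646, 517 and 724 against 178, 155 and 204 (−1.81 ± 0.24, adjusted p = 0.0345). Gpihbp1, which carries lipoprotein lipase across capillaries, was at 2188, 2173 and 2302 against 1111, 915 and 1178 (−1.06 ± 0.13, adjusted p = 0.0291). Vcam1, an adhesion molecule of activated endothelium and of satellite cells, was at 233, 247 and 262 against 102, 113 and 87.8 (−1.30 ± 0.17, adjusted p = 0.035). Aqp1, a water channel of capillaries, fell by 0.63 ± 0.08 (adjusted p = 0.035). Cldn5, the tight junction claudin of endothelium, went the other way, from 324, 287 and 441 to 1383, 1476 and 1644, a rise of 2.12 ± 0.21 (adjusted p = 0.0123). It was the only called gene of 16 endothelial markers, against 0.311% of all genes called higher and 0.200% lower. The median of these markers was −0.06, with summed signals of 13550 to 14830 in control mice and 12820 to 13280 in DEX + TE mice. Kcna5, a voltage-gated potassium channel, fell by 1.40 ± 0.14 (adjusted p = 0.0139), and Noct, a clock-controlled phosphatase, fell by 1.28 ± 0.17 (adjusted p = 0.0336). Fam107a, which is known to respond to stress hormones, was at 522, 420 and 605 against 118, 116 and 116 (−2.13 ± 0.23, adjusted p = 0.0178). Cbr2, Hecw2 and Abr completed the 15 largest falls, at −1.62, −1.49 and −1.18. Each call of this paragraph was lost when at least 1 array was left out. Those of Aplnr, Gpihbp1, Hecw2, Cbr2, Vcam1 and Aqp1 were lost without any 1 of the control or DEX + TE arrays, and Abr and Noct kept theirs only without DEX + TE mouse 2. Kcna5 was lost without mouse 1 or 2 of either group, Fam107a without control mouse 1 or 3 or any DEX + TE mouse, and Cldn5 without control mouse 1 or any DEX + TE mouse.

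Immediate early genes, which cells switch on within minutes of a stimulus, stood higher in DEX + TE muscle, with few calls. Of 21 measured, 1 was called higher, 12 had an unadjusted p under 0.05 with a higher value, and 19 were higher by value, with 1 of the 21 above the signal limit only in DEX + TE mice. Of all genes, 0.311% were called higher, and 7.85% were higher at an unadjusted p under 0.05. In 12 the groups did not overlap with DEX + TE higher, against 12.6% of all genes. Their median was 1.13 on the deposited scale, 0.98 with centred arrays and 1.04 with quantile normalization. On single arrays the list's median was −0.11 to 0.19 in control mice, 0.67 to 1.26 in DEX + TE mice and 0.19 to 0.67 in DEX mice. Nr4a2, an orphan nuclear receptor, had signals of 151, 127 and 60.9 in control mice, 2278, 3151 and 1634 in DEX + TE mice and 203, 831 and 628 in DEX mice. It rose by 4.43 ± 0.58 (adjusted p = 0.0345), and by 3.08 ± 0.42 on a second probe set. Its other 3 probe sets were not called by limma, the lowest at −0.74, and Rank Product called 1 of them, with 2.94, higher. On the first of these probe sets Nr4a2 lost its call without any 1 of the control or DEX + TE arrays or DEX mouse 3 (adjusted p up to 0.124). The second was not checked in this way. Fosl2 and Klf4 had log2 fold changes of 1.58 ± 0.27 and 1.41 ± 0.24 (adjusted p = 0.07 and 0.0715). Fos, of the AP-1 complex, was at 345, 341 and 289 against 894, 2318 and 1522 (2.18 ± 0.44, adjusted p = 0.106), and at 1452, 1331 and 564 in DEX mice. Zfp36, which destabilizes messenger RNAs of cytokines, was lower by value, at 827, 829 and 1083 against 336, 508 and 421 (adjusted p = 0.165).

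The Nr4a2 promoter is printed for the element TGACG, the core of the site bound by cyclic AMP-responsive factors, which was searched on both strands after the values were seen. It lies at chr2:57124004-57124253 of GRCm38.p6, minus strand, the 250 bases before the start site, and capitals mark the element or its complement.
Nr4a2: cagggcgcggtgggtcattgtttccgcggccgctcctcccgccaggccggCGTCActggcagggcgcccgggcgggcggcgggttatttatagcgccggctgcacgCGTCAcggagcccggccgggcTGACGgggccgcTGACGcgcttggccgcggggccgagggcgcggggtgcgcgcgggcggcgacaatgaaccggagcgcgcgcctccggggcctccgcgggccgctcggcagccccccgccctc
The 4 copies begin 200, 144, 123 and 111 bases before the start site. Of the 21 promoters of 17 immediate early genes 12 (57.1%) held TGACG from 250 bases before to 50 after the start, against 20.8% of all promoters, 20.4% of those of called higher genes and 23.8% of those of called lower genes. AGAACA was in 0 of the 21. These are counts of letters, with no measurement of binding.

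**Figure D3:**
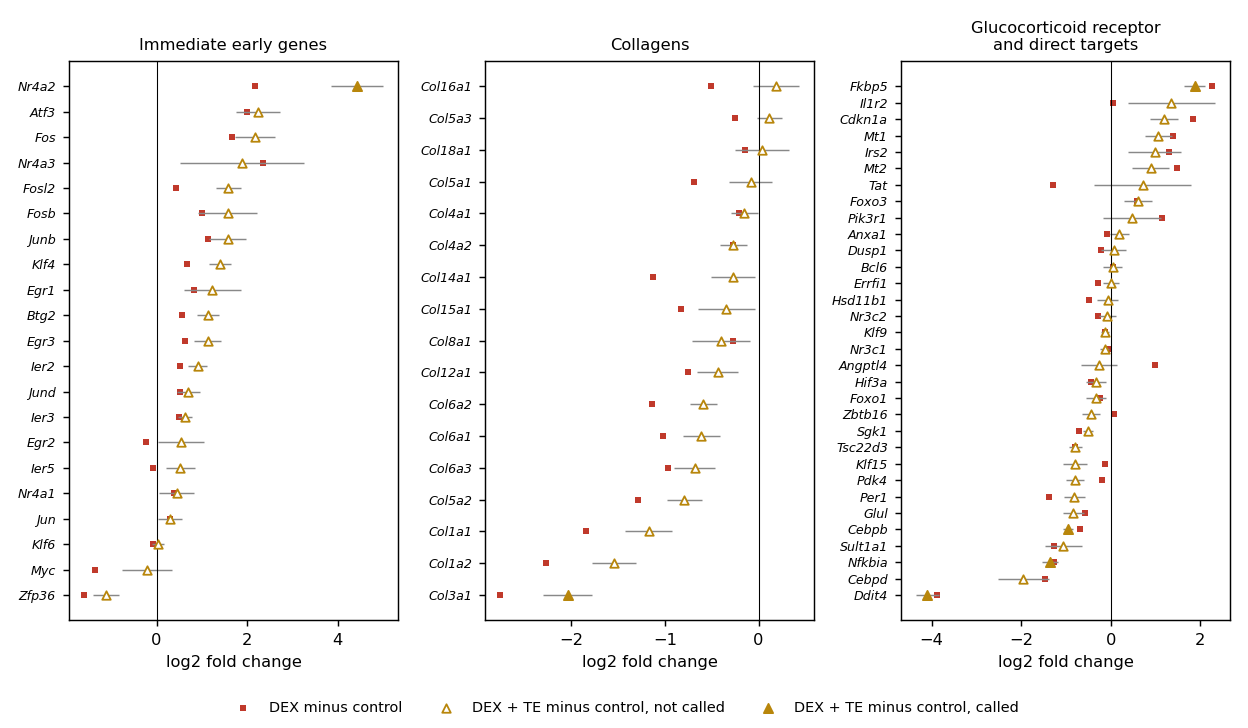
Log2 fold change against control (x axis) of the measured immediate early genes, collagens, and glucocorticoid receptor and targets, with triangles and SE bars for DEX + TE and squares for DEX. Filled triangles were called, and both comparisons share the 3 control arrays; collagens lie mostly left of 0 and immediate early genes right of it.

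Heat shock genes had values in the same direction for the inducible members. Of 23 measured, 0 were called by limma or Rank Product, and 6 had an unadjusted p under 0.05 with a higher value, against 7.85% of all genes. Hspa1b, an inducible HSP70, was at 4500, 2405 and 2987 against 16260, 26680 and 12050 (2.45 ± 0.49, adjusted p = 0.102). Hspa1a was at 996, 818 and 1183 against 5698, 6052 and 2610 (2.18 ± 0.43, adjusted p = 0.102). The list's median was 0.12 on the deposited scale and −0.03 with centred arrays.

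Adipocyte genes included 2 calls of 13 measured, both higher, against 0.311% of all genes called higher. Of the 13, 2 reached the signal limit only through the DEX + TE group. Adipoq, adiponectin, a hormone of fat cells, was at 268, 371 and 441 in control mice, 868, 721 and 905 in DEX mice and 1165, 2050 and 1761 in DEX + TE mice, a rise over control of 2.19 ± 0.26 (adjusted p = 0.024). Retn, resistin, rose from 128, 142 and 178 to 401, 440 and 608, by 1.69 ± 0.21 (adjusted p = 0.03). Adipoq lost the call without control mouse 1 or 2 or DEX + TE mouse 2 or 3 (adjusted p up to 0.0857), and Retn without any 1 of the control or DEX + TE arrays or DEX mouse 3 (up to 0.0941). Lep and Pck1 had log2 fold changes of 1.31 ± 0.21 and 2.74 ± 0.45 (adjusted p = 0.059 and 0.0648). Of the brightest markers, Fabp4 had −0.21 and Car3 −0.32, without a call. The list's summed signal was 85250 to 103400 in control mice and 75330 to 83050 in DEX + TE mice, and the part of fat tissue in the sample was not tested. Plin5, which coats lipid droplets in oxidative muscle, rose from 941, 880 and 822 to 2091, 1919 and 2056, by 1.20 ± 0.11 (adjusted p = 0.0114, and up to 0.0587 without DEX + TE mouse 1 or 3). Tecr, which elongates very long-chain fatty acids, rose on both probe sets, by 1.03 ± 0.09 and 1.05 ± 0.09 (adjusted p = 0.00632 and 0.00565), and kept both calls without any 1 of the 9 arrays.

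Genes of oxidative phosphorylation, by which mitochondria make ATP, were lower by a small amount. All 42 measured genes stood lower by value, 24 with an unadjusted p under 0.05, and 38 had groups that did not overlap. On the probe set that stood for each gene, 0 were called by limma or Rank Product. The same unadjusted limit was passed by 6.93% of all genes with a lower value, and 12.4% of all genes lay lower without overlap. The median was −0.26, with a range of −0.41 to −0.04, and on the single DEX + TE arrays it was −0.25, −0.24 and −0.25. Ndufb5, of complex I, was at 30860, 29570 and 30190 against 24170, 23410 and 23480 (−0.35 ± 0.08, adjusted p = 0.142). Uqcrfs1, the Rieske protein of complex III, had −0.34 ± 0.08 and Cox7a1, a muscle subunit of complex IV, −0.36 ± 0.09. The 14 fast fiber genes stood lower by value too, each of them, at a median of −0.24, with 0 calls by limma or Rank Product and 2 at an unadjusted p under 0.05. These values moved with brightness and scaling. The brightest 1% of all genes, 134 in number, had a median of −0.21, and 125 of them had a lower value. With quantile normalization 36 of 42 oxidative phosphorylation genes were lower, with a median of −0.10, and the fast fiber median was −0.01, with 7 lower and 6 higher. With centred arrays the shifts were larger, with medians of −0.41 and −0.39, and all 42 and all 14 genes were lower. Single calls among energy genes were Oxct1, of ketone body use, at −0.91 ± 0.13 (adjusted p = 0.0407), Prkag3, a muscle subunit of AMP kinase, at −0.80 ± 0.11 (adjusted p = 0.0345), and Sirt3, a mitochondrial deacetylase, at −0.76 ± 0.10 (adjusted p = 0.0345), and all of these were lost without any 1 of the control or DEX + TE arrays (adjusted p up to 0.145).

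Slow fiber genes were less uniform. Myh7, the slow myosin heavy chain, was at 82.8, 22.9 and 75.9 against 151, 481 and 346 (2.48 ± 0.68, adjusted p = 0.187), Myoz2 had 0.90 ± 0.22 (adjusted p = 0.156) and Myl3 −0.98 ± 0.29 (adjusted p = 0.21). Of 10 measured, 0 were called by limma or Rank Product and 4 had an unadjusted p under 0.05. Of these, 3 were higher and 1 lower, against 7.85% and 6.93% of all genes.

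**Figure D4:**
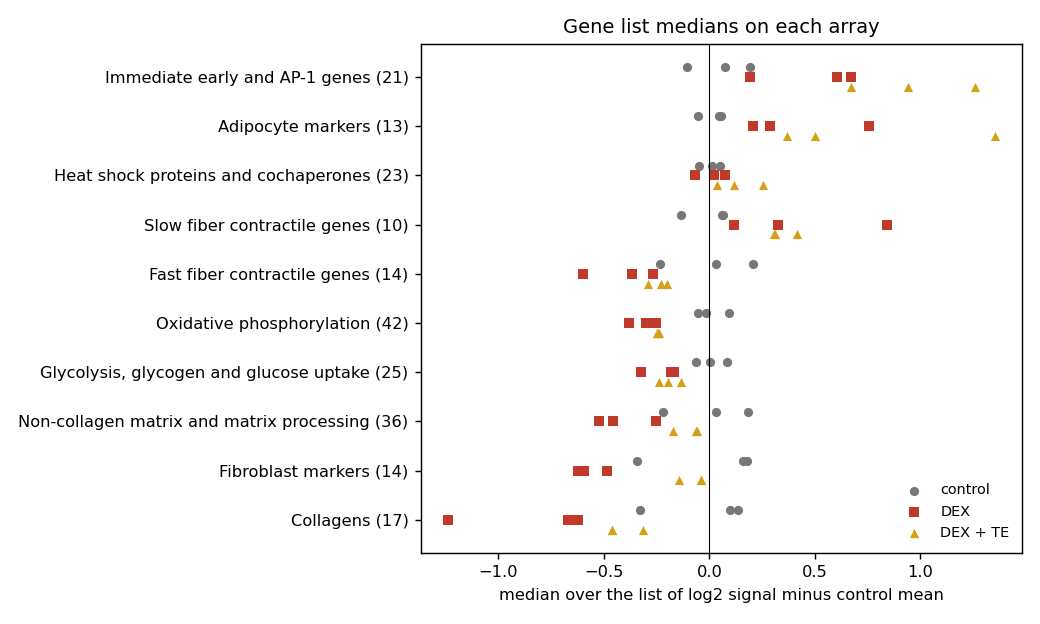
Median over a gene list of log2 signal relative to the control mean (x axis) on each of the 9 arrays, for 10 lists with the number of measured genes in parentheses. The 3 DEX + TE arrays lie above every control array for immediate early genes and below every control array for oxidative phosphorylation genes.

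Clock genes, which set daily rhythms, gave 1 call among 18 measured genes, against 0.311% of all genes called higher and 0.200% lower. Bhlhe40, a repressor of the clock, rose from 3722, 3091 and 2750 to 8417, 6735 and 8496, by 1.31 ± 0.19 (adjusted p = 0.0406), a call that was lost without any 1 of the 9 arrays (adjusted p up to 0.143) and with centred arrays. The gene Clock was called on 1 of its 3 probe sets (0.89 ± 0.12, adjusted p = 0.0356), and its brightest differed by 0.42. That call of Clock was also lost without any 1 of the 9 arrays (adjusted p up to 0.124). Hlf, Tef and Per2, outputs and a repressor of the clock, had −0.81, −0.52 and −1.46 without a call.

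The macrophage, neutrophil and lymphocyte marker lists gave no calls by limma, and Rank Product called Cd3g, of the T cell receptor complex, lower (log2 fold change −2.46). Outside these lists, limma called Cd247, the zeta chain of that complex, lower on 1 of its 3 probe sets, at 48.4, 60.8 and 52.7 in control mice and below 50 on every DEX + TE array, at least 1.07-fold lower (adjusted p = 0.0406), while its other probe sets had −0.46 and 1.31. The 15 macrophage and dendritic cell markers had summed signals of 1971 to 3074 in control mice and 2920 to 3042 in DEX + TE mice. Of these 15, 5 reached the signal limit only through the DEX + TE group and 1 only through the control group. Only 5 of 12 neutrophil markers and 4 of 15 lymphocyte markers were measured, and Cd3e, Cd3d, Cd4, Cd8b1 and Cd2, which define T cells, were below 50 on all 6 arrays. S100a9 and S100a8, of neutrophils, had log2 fold changes of 1.70 ± 0.46 and 1.23 ± 0.39 (adjusted p = 0.184 and 0.233). All 5 measured neutrophil markers were higher by value, 2 of them above the signal limit only in DEX + TE mice, and their summed signal was 336 to 513 in control mice, 583 to 941 in DEX + TE mice and 461 to 962 in DEX mice. The part of these cells in the acute-phase values was not tested. H2-Aa, of MHC class II, was at 733, 1523 and 1338 against 343, 421 and 294 (−1.71 ± 0.38, adjusted p = 0.129), and at 94.9, 203 and 198 in DEX mice. H2-Aa had the lowest log2 fold change of its list, which did not move as a whole. Of 11 measured MHC class II genes, 6 were higher and 5 lower by value, with a median of 0.061 and 0 calls. An unadjusted p under 0.05 was reached by 2 with a lower value and 0 with a higher. Of the 11, 2 were above the signal limit only in DEX + TE mice.

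Across all 44 gene lists, which hold 878 different genes, 741 were measured. Of the 741, limma called 11 higher and 6 lower, against 0.311% and 0.200% of all genes. These calls fell in 13 lists, and 31 lists held none. On the probe set that stood for each gene, Rank Product called a member in 2 of the 31. These were Cxcl9 of the interferon-induced genes and Cd3g of the lymphocyte markers, both lower. Its calls on other probe sets were not counted, such as that of Slc39a6, a zinc transporter, lower (log2 fold change −2.34). Lists without a call and with medians within 0.1 of 0 included proteasome subunits (33 measured, −0.08), cytosolic ribosomal proteins (26 measured, −0.03), autophagy and lysosome genes (25 measured, 0.02) and myostatin, activin and follistatin genes (14 measured, 0.07). With centred arrays the proteasome median was −0.23, with 31 of 33 members lower.

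The values of the DEX group stand beside those of DEX + TE for the 30 genes with the largest changes, and both share the control arrays. Against control, DEX alone passed the adjusted p of 0.05 for 21 of the 30. Between DEX + TE and DEX, log2 differences ran from −0.68 for Glra3 to 2.26 for Nr4a2, 8 of the 30 had an unadjusted p under 0.05 and 0 an adjusted p under 0.05, the lowest being 0.386 for Ifi27l2a. Both these genes and all 119 called probe sets were picked by their DEX + TE values, which enter this comparison again. Low unadjusted p values are thereby favoured, and their share over all probe sets was not counted. Of the 119, 41 had an unadjusted p under 0.05 between DEX + TE and DEX and 2 an adjusted p under 0.05. These 2, chosen after their values were seen, were probe sets of BC025920 and Kdm5c. BC025920 was at 69.7, 83.6 and 48.4 in control mice, 105, 87.1 and 97.2 in DEX mice and 12.1, 6.00 and 8.14 in DEX + TE mice, at least 1.31-fold lower than control. Kdm5c, a histone demethylase, was at 69.0, 80.6 and 72.8, then 60.7, 64.6 and 59.6, then 10.1, 15.4 and 8.41, at least 1.48-fold lower than control. The Kdm5c call held without any 1 of the 9 arrays, and that of BC025920 was lost without control mouse 1 or DEX + TE mouse 3. The 5 other Kdm5c probe sets differed by 0.01 to 1.04 and were not called, so its probe sets disagreed.

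Of the called probe sets, 15 had no single gene symbol, 9 of them higher and 6 lower, and they include the smallest adjusted p of the comparison. The probe set 1431214_at was at 237, 248.9 and 219 in control mice and rose by 3.91 ± 0.14, and 1431213_a_at rose by 3.55 ± 0.12 (adjusted p = 8.67e-05 for both). The probe set 1451715_at fell from 420, 390 and 339 to below 50 on every DEX + TE array, and 1451716_at fell by 2.79 ± 0.24 from 2314, 2505 and 2080 (adjusted p = 0.0073). Their values in DEX mice, relative to control, were 3.96 and 3.61 for the first pair and −2.90 for 1451716_at on the log2 scale, and 1451715_at was below 50 on every DEX array. The call of 1451715_at was lost without any 1 of the control or DEX + TE arrays (adjusted p up to 0.0926), and the others held.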

How the data were processed

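The deposited data hold 1 intensity per probe set and array, which the authors scaled to a mean of 500 per array after trimming 2% at both ends. Although the methods cite the Robust Multi-array Average, an algorithm with log2 output, the deposited intensities are linear and so come from another summary, whose program is not given in the sources used. Signal summaries differ most for dim probe sets. From 250 ng of RNA per mouse, samples were labelled with a 3′ kit, so signals depend on 3′ ends. The number of arrays limits the precision. Arrays of a group are of separate mice.

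Log2 was taken of the intensities without an offset. A model of 3 group means over the 9 arrays was fitted in limma 3.58.1 (lmFit and eBayes, R 4.3.3), with Benjamini-Hochberg adjustment over the 28616 probe sets kept. The thresholds of 0.05 and 0.6 are those of the methods. Rank Product, the test named in the methods, was run on the 6 arrays with 100 permutations. Python 3.11.15 with numpy 2.4.6, pandas 2.3.3 and matplotlib 3.10.9 was used. Symbols came from the array's annotation, in which 34945 probe sets have 1 symbol, 932 several and 9160 none. For lists, the probe set with the highest mean log2 signal stood for a gene. On simulated data of 28616 probe sets for DEX + TE against control, 39 of 100 changes of size 1 (log2) and 73 of 100 of size 2 were called by limma. It made 9 false calls there and 0 calls in data without changes.

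The rule for the genes named took the 15 largest rises and 15 largest falls among calls whose groups did not overlap (1 probe set per gene, a group below 50 on every array counted at 50), as many as 4 called members per list or, as values, 3 with the lowest p, and the RT-PCR panel. Genes outside this rule were chosen after their values were seen. The members and lists were chosen with earlier results of these data known. Alternatives covered the arrays in the fit, scaling, filter, pseudocount, variance prior, fold threshold, test, replicate numbers and single arrays.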

Additional observations from a re-analysis of the deposited data

Results flagged for a closer look

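The 3′ over 5′ signal of beta-actin, as a log2 ratio, was the only one of 4 such ratios that stood above every control array. It was 0.381, 0.443 and 0.545 in DEX + TE mice (mean 0.456) and 0.293, 0.254 and 0.327 in control mice. The DEX arrays, at 0.102, 0.358 and 0.432, spanned both groups. The same ratio for Gapdh, the transferrin receptor and pyruvate carboxylase overlapped between the groups, with means of −0.33, 0.77 and 1.64 in DEX + TE mice and −0.34, 0.95 and 1.66 in control mice. Its part in the calls was not tested.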

How the results depend on the processing

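The counts of calls moved with most settings, and none of the 39 called probe sets named by the rule changed direction in the limma settings. Called probe sets named outside the rule were checked at most for keeping the call with single arrays left out. Against 69 higher and 50 lower calls and 17 called list genes, the fit to the 6 arrays compared gave 43, 26 and 8, no filter 31, 13 and 5, a limit of 100 in place of 50 gave 144, 84 and 27, and a mean-variance trend 255, 158 and 62. Centred arrays gave 60 and 79, quantile normalization 76 and 76, log2(signal + 16) 96 and 66, the adjusted p alone 69 and 50, and a filter over all 3 groups, chosen after seeing the data, 65 and 46. Rank Product called 86 and 80, of which 28 in all were also called by limma, and in 61 and 58 of its calls the dimmer group was below 50 on every array. Leaving out 1 array gave 23 to 71 higher calls, 9 to 47 lower calls and 3 to 17 list genes. The replicate block gave 24 and 8 calls and 6 list genes. Correlations of deviations between arrays of the same number were −0.025 to 0.057 over the tested probe sets. Whether the numbers mark a shared factor was not tested, and the block says nothing on the size of an effect. Of 39 named called probe sets, 7 kept the call under every limma setting, those of Lcn2, Pnmt, Cep85, Pim1, Cdkal1, Lrg1 and Ddit4. List medians moved by more than the SD over the DEX + TE arrays in 99 of 396 comparisons of settings. Single genes with a change of 1 on the log2 scale are often missed with 3 arrays a group, as the simulated recovery of 39 of 100 shows. The causes of these moves were not tested.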
